A study of Mus musculus with 15 samples.

Results

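Imprinted growth genes are genes read from 1 parental allele that set the size of the embryo and its organs. The 10 described here are H19, Dlk1, Meg3, Peg3, Plagl1, Grb10, Mest, Ndn, Cdkn1c and Zim1. They were picked by symbol from a list drawn up with earlier results of these data known, and each had 1 row among the 25292 genes of the count table. All 10 passed the filter on low counts.

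Poly(A) RNA was sequenced from embryonic mouse pancreata in 15 libraries, in 5 groups of 3. All mice were of the strain C57/Bl6J. Pancreata taken directly at 14.5 days post coitum (dpc) were wildtype (wt) or S1pr2 null, the latter carrying the tm1Rlp allele by the methods of the study. The other groups were wildtype explants of that stage, which by those methods were dorsal buds, kept for 2 days on a filter at the air-liquid interface (ALI) in serum-free medium. Control explants had standard medium, JTE explants 15 μM JTE013, an antagonist of the sphingosine-1-phosphate receptor S1pr2, and JTE + CTGF explants 15 μM JTE013 plus CTGF (connective tissue growth factor) at 50 ng/ml. Up to 3 pancreata were pooled per library, so the spread within a group is between pools and not between embryos. The strain is inbred, and the read counts do not tell the 2 parental alleles apart.

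Imprinted genes lie in clusters in which a methylated control region silences 1 allele according to the parent it came from. Many of the paternally expressed members, such as Igf2, Dlk1, Peg3 and Mest, promote growth, whereas maternally expressed members such as H19, Grb10 and Cdkn1c restrain it. Several are abundant in fetal tissue and decline after birth. Plagl1 lies in the region of human transient neonatal diabetes, and Cdkn1c restrains the division of pancreas progenitors.

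The members lie on 5 chromosomes of mm10. H19 (ENSMUSG00000000031, chr7:142575529-142578143, minus strand) and Cdkn1c (ENSMUSG00000037664, chr7:143458350-143461050, minus strand) belong to the distal cluster of chromosome 7, 880206 bases apart. Peg3 (ENSMUSG00000002265, chr7:6703892-6730421, minus strand) and Zim1 (ENSMUSG00000002266, chr7:6675443-6696450, minus strand) are neighbours with 7441 bases between them, and Ndn (ENSMUSG00000033585, chr7:62348277-62349928, plus strand) lies in the Prader-Willi region of the same chromosome. Dlk1 (ENSMUSG00000040856, chr12:109452823-109463336) and Meg3 (ENSMUSG00000021268, chr12:109541001-109571726) share a cluster and the plus strand with 77.7 kb between them. Plagl1 (ENSMUSG00000019817) spans chr10:13090691-13131694 on the plus strand, Grb10 (ENSMUSG00000020176) chr11:11930508-12038683 on the minus strand and Mest (ENSMUSG00000051855) chr6:30723547-30748455 on the plus strand. H19 and Meg3 are annotated as long noncoding RNAs and the other 8 as protein-coding.

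Of the exon bases of Mest, 902 (22.9%) lie over exons of Copg2 on the other strand. Whether reads were counted by strand was not stated, so reads over this stretch can belong to either gene. Of the 50-base words of the Meg3 transcripts, 4.04% occur at another locus, and of those of Zim1 0.619%, while the other 8 members had none elsewhere.

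The sequences shown are those of the neighbours Peg3 and Zim1, which were both lowest in the JTE + CTGF libraries, and of the microRNAs that H19 and Mest host. Promoter windows of 300 bases (250 before and 50 after a start site) came from RefSeq on GRCm38.p6 and were found for 8 of the 10 members. The stretches printed are the bases before the start that no annotated exon covers, at chr7:6730432-6730577 and chr7:6696451-6696682, both read on the minus strand.

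Peg3: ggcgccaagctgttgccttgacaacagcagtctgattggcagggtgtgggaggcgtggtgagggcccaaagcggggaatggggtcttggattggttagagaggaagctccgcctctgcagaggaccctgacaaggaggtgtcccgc
Zim1: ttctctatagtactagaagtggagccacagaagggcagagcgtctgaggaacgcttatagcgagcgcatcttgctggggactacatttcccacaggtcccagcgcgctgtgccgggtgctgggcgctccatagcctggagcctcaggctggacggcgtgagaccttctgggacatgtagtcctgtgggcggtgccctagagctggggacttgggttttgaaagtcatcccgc

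Windows were searched on both strands for GGGGCCCC, the core of an element bound by Plagl1, and for GCCATNTT, the core of the Yy1 element known from the Peg3 control region. Neither occurs in the stretches above. The whole Peg3 window holds 1 GGGGCCCC, 201 bases before the start, where annotated exons of the divergent genes Usp29 and Gm27675 lie. The 28 bases at chr7:6730603-6730630, read on the minus strand, hold the match in capitals with 10 bases on either side.

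Peg3 window match: actctgcttgGGGGCCCCtaacactgac

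No other window of the 8 members held either motif. Of all 32851 promoter windows of this length, 1.08% held GGGGCCCC and 6.05% held GCCATNTT.

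MicroRNAs were not measured, since poly(A) RNA counted per gene does not resolve the mature forms. H19 hosts miR-675 in its exon (mature forms at chr7:142577112-142577133 and chr7:142577078-142577099), and Mest hosts miR-335 in an intron (chr6:30741314-30741336 and chr6:30741354-30741375). The mature sequences are given from RefSeq with the seed, bases 2 to 8, in capitals, and the 4 seeds all differ.

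mmu-miR-675-5p: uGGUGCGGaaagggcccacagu
mmu-miR-675-3p: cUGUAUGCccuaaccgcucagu
mmu-miR-335-5p: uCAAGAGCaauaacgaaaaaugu
mmu-miR-335-3p: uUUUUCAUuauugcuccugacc

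The libraries held 11402804 to 13828737 reads assigned to genes. S1pr2 itself had 1458, 1263 and 1354 normalised reads under the null label, more than in wt (772, 762 and 762). Normalised reads are reads divided by the library's effective size relative to the mean of all libraries. By the methods of the study the allele carries a cassette in an exon, so reads over the rest of the gene do not test it, and results for these libraries rest on their label. In bulk tissue, fewer cells of a type and less RNA per cell cannot be told apart. JTE replicate 3 stood apart: set against the other 2 JTE libraries it gave chi-square values of 17.2 and 23.2 per gene, where those 2 gave 3.01. Lists of marker genes moved with the groups. The summed reads of 8 cycling genes were 25081 to 26285 in wt, 24663 to 24880 in S1pr2 null, 14097 to 15117 in control, 8982 to 9814 in JTE and 7039 to 8400 in JTE + CTGF. The 10 acinar genes summed to 77876 to 132014 in wt, 27019 to 29643 in S1pr2 null, 583458 to 781218 in control, 577881 to 1047300 in JTE and 1067430 to 1214980 in JTE + CTGF libraries, the last above every control library. These sums follow the most abundant genes and do not stand for each gene of the list. Of 9 acinar genes tested, 3 were called higher, 2 lower and 4 not in JTE + CTGF against control. In JTE against control, 1 was called higher, 1 lower and 7 not. Of all tested genes, 61.1% and 52.2% were called in these comparisons. The 10 endocrine genes summed to 29584 to 33039 in wt, 15224 to 17106 in S1pr2 null, 68340 to 79158 in control, 18216 to 22909 in JTE and 19123 to 27341 in JTE + CTGF. The 4 spleen anlage genes summed to 959.7 to 1110 in wt and 1621 to 2260 in S1pr2 null, where all 4 were called higher, and to 551 to 669.6 in control libraries. The sum of the 10 mesenchyme genes varied less, with 112406 to 131959 in S1pr2 null, 144470 to 177904 in JTE and 159169 to 166887 in JTE + CTGF. Single genes of that list moved both ways. In S1pr2 null against wt 3 were called higher and 4 lower, beside 12.6% and 13.3% of all tested genes. No gene of the acinar, endocrine and mesenchyme lists other than 1 acinar gene was at or under 3 reads in every library of a group. Macrophage genes (8) summed to 5458 to 5706 in control and 2070 to 2619 in JTE libraries. Smooth muscle genes (6) summed to 2249 to 2400 in control and 1288 to 1447 in JTE, and mesothelium genes (6) to 2634 to 2949 and 1559 to 1742. Erythroid genes (10) summed to 15200 to 17850 in wt and 226.2 to 536.3 in control. The part of these shifts in the values below was not tested.

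By reads in wt, where long genes gather more reads, 8 of the 10 members ranked between 1 and 53 of 25292 genes. Ndn ranked 1597 on that measure and Zim1 1679. Together the 10 members took 1.39% to 2.46% of all reads in a library. H19 was the gene with the most reads in the wt and S1pr2 null libraries, with ranks 3 to 4 in the explants. Levels between genes were compared per length, as RPKM (reads per kb of exon, scaled to library size). On that scale the wt levels were 4099 ± 247 for H19 (SD, n = 3), 591 ± 17.3 for Cdkn1c, 456 ± 11.8 for Dlk1 and 398 ± 20.3 for Mest. Grb10 stood at 222 ± 12.8, Plagl1 at 129 ± 10.9, Peg3 at 119 ± 2.76 and Meg3 at 93.9 ± 5.33. Ndn (78 ± 8.99) and Zim1 (34.2 ± 1.06) were the lowest of the 10. Per length, the wt ranks among all genes were 4 for H19, 36 for Cdkn1c, 50 for Dlk1 and 63 for Mest. Further down came Grb10 at 146, Plagl1 at 342, Peg3 at 396, Meg3 at 542, Ndn at 672 and Zim1 at 1912. Neighbours in this order did not overlap within 1 SD other than Plagl1 with Peg3.

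**Figure D1:**
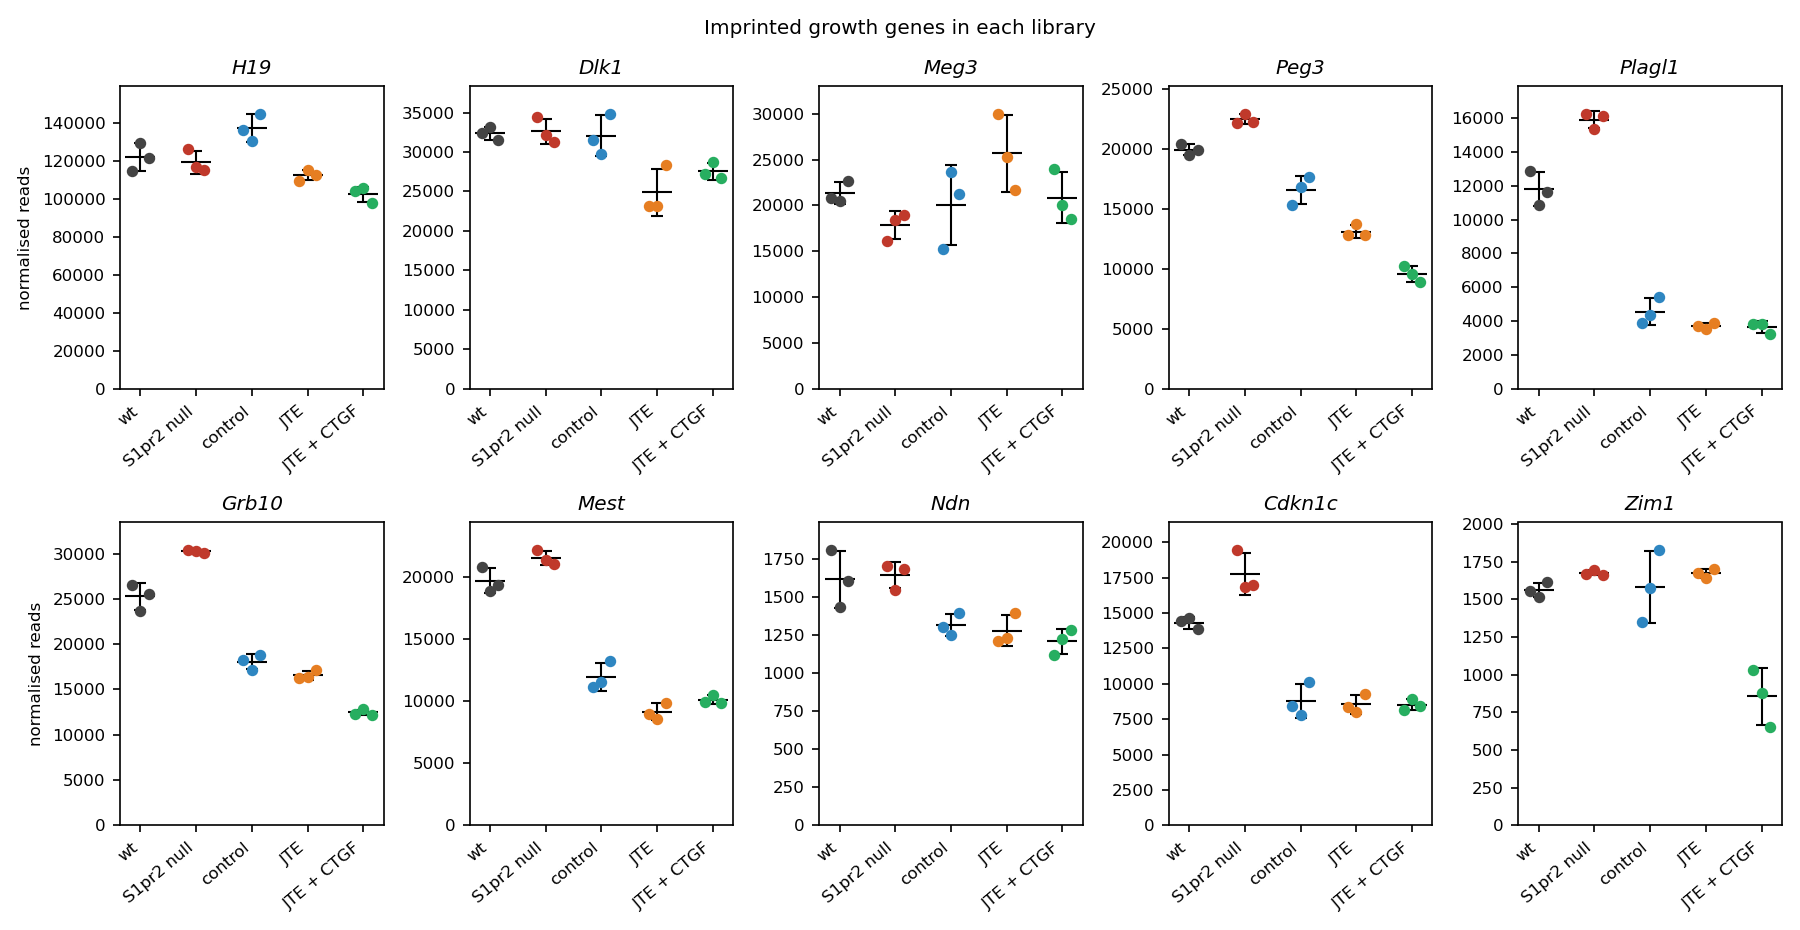
Normalised reads of each member in every library, with the 5 groups on the horizontal axis. Coloured points are libraries, horizontal bars group means and vertical bars SD over 3 libraries. Plagl1, Mest, Cdkn1c, Grb10, Peg3 and Ndn are lower in all explants than in all fresh pancreata, and Zim1 is lower in the 3 JTE + CTGF libraries than in the other 12. The share of all genes with such separations was not counted, so they cannot be called particular to the members. Between control and wt, 57.8% of all tested genes were called.

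Differences were fitted with edgeR over all 16245 genes tested and called at an adjusted p below 0.05. In libraries labelled S1pr2 null against wt, 4 of the 10 members were higher and none lower, where 12.6% of all tested genes were called higher, 13.3% lower and 25.8% in either direction. The median log2 fold change of the members was 0.12, against -0.01 for all genes. The count of 4 was 2 without wt replicate 3 or without S1pr2 null replicate 1. Over all genes, 3158 of 16473 and 3313 of 16466 were called in these fits. With only the 6 libraries compared the count was 7, with Mest and Zim1 added as higher and Meg3 as lower. There 5388 of 15527 genes were called, against 4199 of 16245 in the reported fit. All 4 spleen anlage genes were called higher in the libraries labelled S1pr2 null (median 1.13), and whether this bears on the members was not tested. With JTE013 against control, 6 members were lower and 1 higher, where 26.2% of all genes were called lower, 25.9% higher and 52.2% in either direction. The members' median was -0.21 and that of all genes 0. The count of 7 was 4 without JTE replicate 2, and also 4 with only the 6 libraries compared, where Meg3, Plagl1 and Grb10 were not called. Over all genes, 7791 of 16488 and 7331 of 15342 were called in these fits, against 8474 of 16245 in the reported fit.

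With JTE013 and CTGF against control, 7 members were lower and none higher, where 33% of all genes were called lower, 28.1% higher and 61.1% in all. Here the members' median was -0.28 and that of all genes -0.03. Against JTE, the same libraries had 3 members lower and none higher, with 16.8% of all genes called lower, 13.6% higher and 30.4% in all, and medians of -0.11 and -0.0022. The count of 3 was 6 without JTE replicate 3 and 6 with no filter on low counts. In both cases the added calls were Dlk1 and Mest, higher with CTGF, and Meg3, lower. Over all genes, 4848 of 16481 and 5019 of 25292 were called in these fits, against 4941 of 16245 in the reported fit. In control explants against wt, 6 members were lower and 1 higher, where 29.3% of all genes were called lower, 28.5% higher and 57.8% in all, and the medians were -0.28 and -0.02. Several of these comparisons share their control libraries and are not independent of one another. The last comparison sets cultured dorsal buds against freshly taken pancreata of an earlier age, so that culture, age and the part of the organ cannot be told apart.

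**Figure D2:**
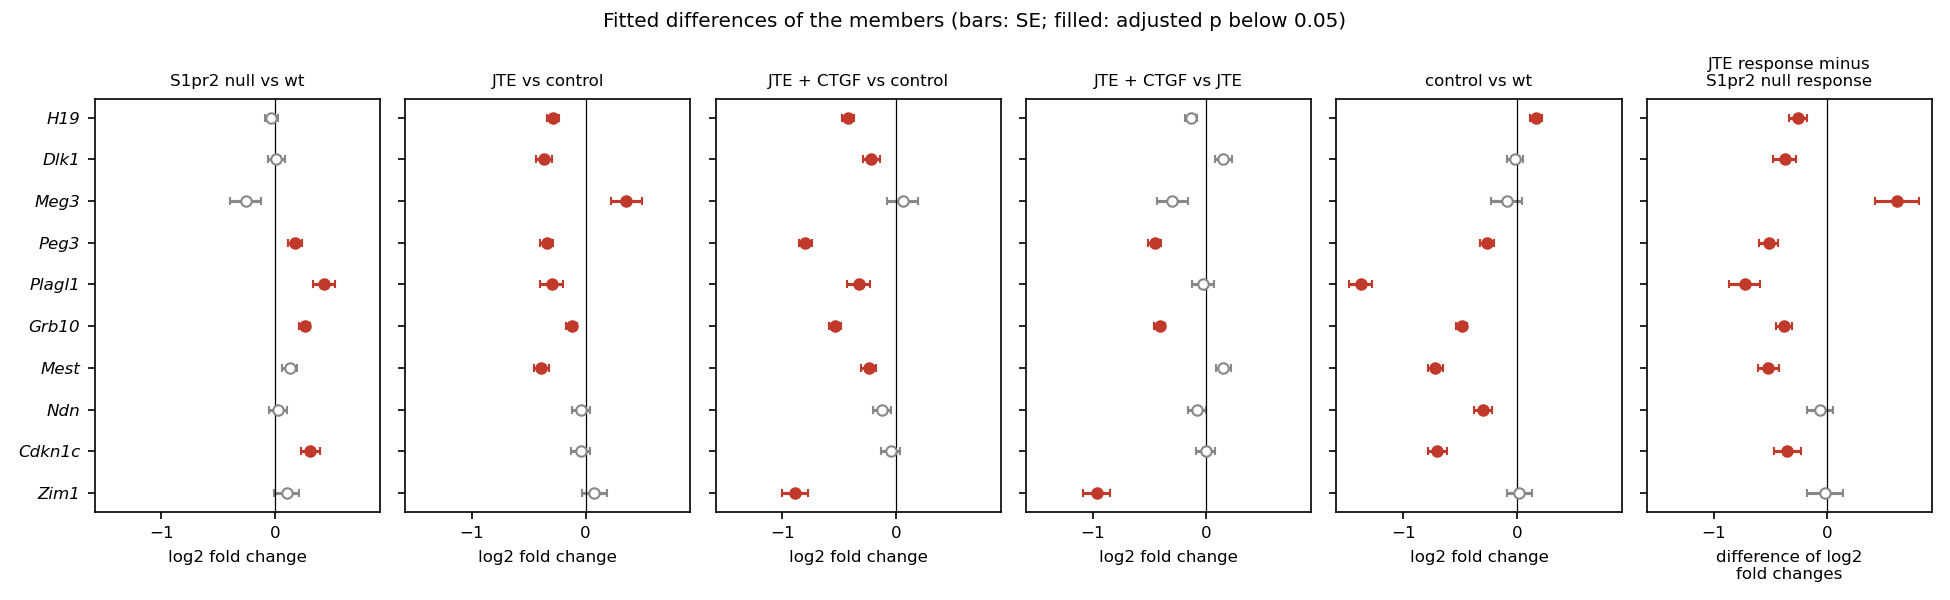
Fitted log2 fold change of each member in the 5 comparisons, and in the last panel the JTE response minus the S1pr2 null response. Points are estimates, bars SE, and filled red points have an adjusted p below 0.05. Peg3, Grb10, Plagl1, Cdkn1c and Ndn lie below 0 in all 4 comparisons of explants, and above 0 in the libraries labelled S1pr2 null. Of these, only Peg3 and Grb10 were called in every one, and some of those calls were lost when 1 library was left out. The share of all genes with these signs was not counted.

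H19, the maternally expressed noncoding RNA beside Igf2, had 114878, 129540 and 121485 normalised reads in the wt libraries and 126219, 116677 and 114965 in S1pr2 null. These overlapped (log2 fold change -0.03, SE 0.05, adjusted p = 0.714). In control explants it had 136290, 130650 and 144968 reads, all above the wt libraries (log2 fold change 0.17, SE 0.05, adjusted p = 0.0129). That call was lost without wt replicate 1 (0.13, adjusted p = 0.0783) and without control replicate 3 (0.13, adjusted p = 0.0679). In the JTE libraries H19 had 109584, 115018 and 112816 reads and in the JTE + CTGF libraries 103935, 105529 and 98030. Both sets lay below every control library, 1.22-fold lower for JTE (log2 fold change -0.29, SE 0.05, adjusted p = 3e-04) and 1.34-fold lower for JTE + CTGF (log2 fold change -0.42, SE 0.05, adjusted p = 4.4e-06). The JTE + CTGF libraries also lay below the JTE libraries, a difference that did not pass the test (log2 fold change -0.13, SE 0.05, adjusted p = 0.0736).

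Igf2, the paternally expressed growth factor next to H19 and not one of the 10, had 60873, 58124 and 60172 reads in wt and 68493, 66290 and 67193 in S1pr2 null libraries. It was higher in the latter (log2 fold change 0.17, SE 0.06, adjusted p = 0.0449). Between JTE and control Igf2 was not called (log2 fold change -0.11, SE 0.06, adjusted p = 0.13), and in JTE + CTGF it was lower than in control (log2 fold change -0.25, SE 0.06, adjusted p = 0.0016). The ratio of H19 to Igf2 reads was 1.77 ± 0.07 (SD, n = 3) in S1pr2 null, 2.04 ± 0.17 in wt, 2.35 ± 0.06 in control, 2.09 ± 0.16 in JTE and 2.10 ± 0.07 in JTE + CTGF. All 3 S1pr2 null libraries had a lower ratio than any wt library, and all 3 control libraries a higher one.

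Dlk1, a paternally expressed transmembrane protein of the Delta-like family, had 32424, 33214 and 31542 reads in wt, 34386, 32171 and 31323 in S1pr2 null and 31543, 29743 and 34876 in control libraries. These 9 libraries overlapped and neither comparison among them was called. The JTE libraries had 23212, 23125 and 28304 reads, 1.29-fold lower than control (log2 fold change -0.37, SE 0.07, adjusted p = 5e-04), with replicate 3 above the other two. The JTE + CTGF libraries had 27197, 28734 and 26745 reads, below every control library (log2 fold change -0.22, SE 0.07, adjusted p = 0.0164). Without control replicate 3 this call was lost (-0.15, adjusted p = 0.0949), as it was without JTE + CTGF replicate 3 (-0.20, adjusted p = 0.0583). Between JTE + CTGF and JTE, Dlk1 was not called (log2 fold change 0.15, SE 0.07, adjusted p = 0.143), but it was called higher with CTGF once JTE replicate 3 was left out (0.29, adjusted p = 0.0025).

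Meg3, the maternally expressed noncoding RNA of the Dlk1 cluster, spread widely between replicates of the explants. It had 20792, 20457 and 22701 reads in wt and 16144, 18386 and 18999 in S1pr2 null libraries. Every S1pr2 null library lay below every wt library, yet the difference did not pass the test (log2 fold change -0.26, SE 0.14, adjusted p = 0.185), and it passed with the 6 libraries of the comparison alone (-0.25, adjusted p = 0.00404). In control explants Meg3 had 15231, 23602 and 21267 reads, in JTE 30019, 25302 and 21669 and in JTE + CTGF 23987, 20000 and 18556. It was the single member called higher with JTE013 (log2 fold change 0.36, SE 0.14, adjusted p = 0.0371), though the libraries overlapped. Without control replicate 1 the value was 0.19, adjusted p = 0.197, without JTE replicate 1 0.23, adjusted p = 0.189 and without JTE replicate 2 0.37, adjusted p = 0.0609, none of which was called. Nor was it called with only the 6 libraries compared (0.35, adjusted p = 0.114) or by DESeq2 (0.34, adjusted p = 0.0933).

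Plagl1, a paternally expressed zinc finger transcription factor that arrests the cell cycle, showed the largest differences of the 10 between fresh and cultured tissue. Its reads were 12868, 10890 and 11652 in wt and 16268, 15346 and 16129 in S1pr2 null libraries, without overlap and 1.35-fold higher in the latter (log2 fold change 0.43, SE 0.10, adjusted p = 0.00385). In control explants it had 3873, 4347 and 5451 reads, 2.59-fold lower than in wt (log2 fold change -1.37, SE 0.10, adjusted p = 5.78e-09). The JTE libraries (3688, 3519 and 3918) overlapped the control libraries and were called lower (log2 fold change -0.30, SE 0.10, adjusted p = 0.019). This call was lost without control replicate 3, the explant library with the most Plagl1 reads, where the value was -0.15, adjusted p = 0.16, and without JTE replicate 2, where it was -0.26, adjusted p = 0.071. The JTE + CTGF libraries had 3823, 3850 and 3229 reads and were lower than control (log2 fold change -0.33, SE 0.10, adjusted p = 0.00948), a call lost without control replicate 3 (-0.18, adjusted p = 0.0814) or JTE + CTGF replicate 3 (-0.25, adjusted p = 0.0598). The difference between JTE and JTE + CTGF was not called (log2 fold change -0.03, SE 0.10, adjusted p = 0.861).

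Peg3, a paternally expressed zinc finger protein, changed in all 5 comparisons. It had 20408, 19486 and 19926 reads in wt and 22227, 22980 and 22308 in S1pr2 null libraries, which lay higher without overlap (log2 fold change 0.17, SE 0.06, adjusted p = 0.0353). This small difference lost its call when any of wt replicates 2 and 3 or S1pr2 null replicates 1 to 3 was left out, with values of 0.16 to 0.18 and adjusted p of 0.0639 to 0.115. In control explants Peg3 had 15366, 16859 and 17658 reads, below all wt libraries (log2 fold change -0.26, SE 0.06, adjusted p = 0.000976). It had 12856, 13724 and 12810 reads in JTE and 10250, 9566 and 8912 in JTE + CTGF libraries, so the 3 explant groups were ordered without overlap. The step from control to JTE was 1.27-fold (log2 fold change -0.34, SE 0.06, adjusted p = 0.000115), that from JTE to JTE + CTGF 1.37-fold (log2 fold change -0.46, SE 0.06, adjusted p = 2.44e-05), and the whole difference 1.74-fold (log2 fold change -0.80, SE 0.06, adjusted p = 8.03e-09).

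Zim1, the maternally expressed zinc finger gene next to Peg3, was called in the comparisons with CTGF and in no other. It had 1554, 1515 and 1611 reads in wt, 1669, 1695 and 1661 in S1pr2 null, 1349, 1574 and 1827 in control and 1673, 1641 and 1703 in JTE libraries. None of the 3 comparisons among these groups was called (log2 fold changes of 0.10, 0.08 and 0.02, adjusted p of 0.542 to 0.883). In the JTE + CTGF libraries it had 1031, 881 and 655 reads, lower than in any other library of the series. Against JTE it was 1.95-fold lower (log2 fold change -0.97, SE 0.12, adjusted p = 1.43e-05) and against control 1.85-fold lower (log2 fold change -0.89, SE 0.12, adjusted p = 5.53e-06). Leaving out any 1 library kept both calls.

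Grb10, an adaptor protein that binds the insulin and IGF1 receptors and dampens their signal, had 26559, 23684 and 25573 reads in wt and 30392, 30309 and 30070 in S1pr2 null libraries. The latter were 1.2-fold higher without overlap (log2 fold change 0.26, SE 0.05, adjusted p = 0.00113). Control explants had 18218, 17159 and 18779 reads, 1.4-fold lower than wt (log2 fold change -0.49, SE 0.05, adjusted p = 3.73e-07). The JTE libraries (16247, 16349 and 17126) lay just below the control libraries (log2 fold change -0.12, SE 0.05, adjusted p = 0.049), a call at the threshold that was lost when any of 11 of the 15 libraries was left out (largest adjusted p = 0.178, without control replicate 3). With CTGF the reads were 12343, 12820 and 12204, 1.33-fold below JTE (log2 fold change -0.41, SE 0.05, adjusted p = 1.54e-05) and below control as well (log2 fold change -0.54, SE 0.05, adjusted p = 1.25e-07).

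Mest, a paternally expressed enzyme of the hydrolase fold that promotes growth, had 20771, 18834 and 19350 reads in wt and 22132, 21310 and 21032 in S1pr2 null libraries. The null libraries lay above wt, but the difference was not called (log2 fold change 0.13, SE 0.07, adjusted p = 0.169). Control explants had 11105, 11526 and 13214 reads, 1.64-fold lower than wt (log2 fold change -0.72, SE 0.07, adjusted p = 1.04e-07). JTE libraries had 8952, 8541 and 9873 reads, 1.31-fold below control (log2 fold change -0.39, SE 0.07, adjusted p = 0.000116), and JTE + CTGF libraries 9951, 10506 and 9868, also below control (log2 fold change -0.24, SE 0.07, adjusted p = 0.0048). Its antisense neighbour Copg2 went the other way with JTE013 (log2 fold change 0.37, SE 0.06, adjusted p = 4.73e-05). Mest did not pass between JTE + CTGF and JTE (log2 fold change 0.15, SE 0.07, adjusted p = 0.106), but was called higher with CTGF without JTE replicate 3 (0.25, adjusted p = 0.0113).

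Cdkn1c encodes p57Kip2, a maternally expressed inhibitor of cyclin-dependent kinases. Its reads were 14427, 14653 and 13843 in wt and 19443, 16807 and 16962 in S1pr2 null libraries, 1.24-fold higher in the latter (log2 fold change 0.31, SE 0.08, adjusted p = 0.0112). The groups did not overlap, though the call was lost without S1pr2 null replicate 1 (0.24, adjusted p = 0.0684) and without wt replicate 3 (0.29, adjusted p = 0.0503). In control explants Cdkn1c had 8462, 7792 and 10143 reads, 1.63-fold lower than wt (log2 fold change -0.70, SE 0.08, adjusted p = 1.97e-06). The JTE (8326, 8023 and 9275) and JTE + CTGF (8144, 8943 and 8454) libraries overlapped these, and no comparison among explants was called (log2 fold changes of -0.05 to -0.0048).

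Ndn, which encodes necdin, a paternally expressed growth suppressor of the MAGE family, had 1809, 1437 and 1603 reads in wt and 1701, 1545 and 1686 in S1pr2 null libraries, which overlapped (log2 fold change 0.02, SE 0.08, adjusted p = 0.86). It was lower in control explants (1303, 1252 and 1394) than in wt (log2 fold change -0.30, SE 0.08, adjusted p = 0.00431). The JTE libraries had 1214, 1228 and 1397 reads and the JTE + CTGF libraries 1119, 1223 and 1280, and no comparison among explants was called (log2 fold changes of -0.12 to -0.04).

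The members differ in length, and several comparisons moved with exon length across all genes, a property examined after the data were seen. Between JTE + CTGF and JTE, the median log2 fold change was 0.15 over the 4074 tested genes with exons under 2 kb, 0.03 over 7489 genes of 2 to 5 kb, -0.16 over 3951 genes of 5 to 10 kb and -0.40 over 731 genes of 10 kb or more. Of this last class 65.9% were called lower. Peg3 (13314 bases, log2 fold change -0.46) lay near the median of its class, as did Meg3 (18089 bases, -0.30). Grb10 (9089 bases, -0.41) lay below the median of its class, and Zim1 (3641 bases, -0.97) lay furthest from its own, 0.03. The counted exons of Zim1 reach down to base 6675443 of chromosome 7, but its GENCODE M21 gene reaches down to 6671269. Its length may thus be understated, and the class of 5 to 10 kb had a median of -0.16. In the libraries labelled S1pr2 null the medians ran the other way, from -0.07 under 2 kb to 0.12 at 10 kb or more, where Peg3 had 0.17 and Meg3 -0.26. Plagl1 (7289 bases, 0.43), Grb10 (0.26) and Cdkn1c (1931 bases, 0.31) lay above the medians of their classes there, 0.04, 0.04 and -0.07. With JTE013 against control the class medians rose from -0.04 to 0.08, while the 6 members called lower fell by 0.12 to 0.39 on the log2 scale. With JTE013 and CTGF against control the medians fell from 0.07 under 2 kb to -0.33 at 10 kb or more, where 58% of genes were called lower. Control explants against wt showed little such movement, with class medians of -0.05, -0.01, -0.03 and -0.03. For the JTE response minus the S1pr2 null response the medians ran from 0.03 to -0.05. The part of length in the members' values was not tested.

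**Figure D3:**
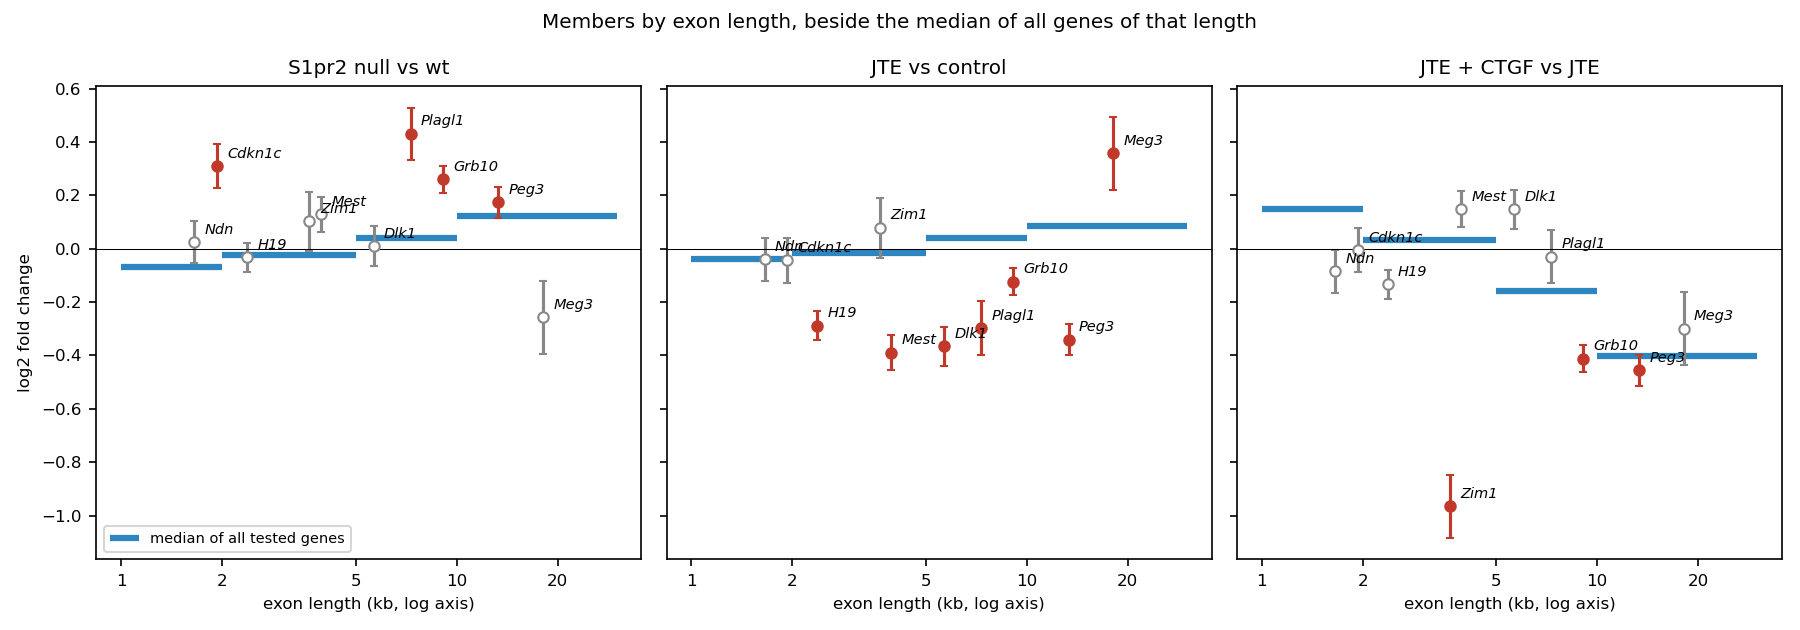
Log2 fold change of each member against its exon length in kb on a log axis, for 3 comparisons. Points are members with SE, filled red where the adjusted p was below 0.05, and blue bars are the median of all tested genes in 4 length classes. Between JTE + CTGF and JTE, Peg3 and Meg3 lie near the blue bar at -0.40 and Zim1 lies at -0.97, far below the bar at 0.03. Lengths are those of the counted exons, which may understate that of Zim1.

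The antagonist and the null allele are both meant to remove S1pr2 signalling, and the 2 responses were compared as the log2 change with JTE013 minus that in the libraries labelled S1pr2 null. For 8 of the 10 members this difference was called, 7 below 0 and 1 above, where 21.5% of all genes were called below, 21.5% above and 42.9% in all. The members' median difference was -0.36 and that of all genes 0.0043. Plagl1 had the largest, -0.73 ± 0.14 (SE, adjusted p = 0.000524), followed by Meg3 with 0.61 ± 0.19 (SE, adjusted p = 0.0167), Mest with -0.52 ± 0.09 (SE, adjusted p = 0.000319) and Peg3 with -0.52 ± 0.08 (SE, adjusted p = 0.000101). Plagl1, Peg3 and Grb10 were called higher in the libraries labelled S1pr2 null and lower with JTE013. For each of them 1 of these calls was not stable when single libraries were left out. The JTE013 call was lost for Grb10 without any of 11 libraries and for Plagl1 without either of 2. The S1pr2 null call was lost for Peg3 without any of 5. Ndn, with -0.06 ± 0.11 (SE, adjusted p = 0.678), and Zim1, with -0.02 ± 0.16 (SE, adjusted p = 0.92), were not called. The null libraries are fresh organs and the JTE libraries cultured buds, so genotype against drug cannot be told apart from fresh against cultured tissue in this contrast.

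Across the 15 libraries the likeness of the members' log2 normalised reads was described by Pearson r with no test, since the libraries share groups and depth. Of the 45 pairs 37 had r above 0, with a median of 0.64. Within the 6 fresh libraries 28 of the 45 were above 0, with a median of 0.21, and within the 9 explant libraries 39, with a median of 0.49. The highest was Plagl1 with Mest (0.98), and Plagl1 with Cdkn1c reached 0.98. Within the 9 explant libraries these fell to 0.84 and 0.60. Meg3 stood apart, with r below 0 in 8 of its 9 pairs, lowest with its neighbour Dlk1 at -0.66. That pair had -0.63 within the 9 explant and -0.62 within the 6 fresh libraries. The neighbours Peg3 and Zim1 had 0.77 over all libraries and 0.85 within the explants.

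**Figure D4:**
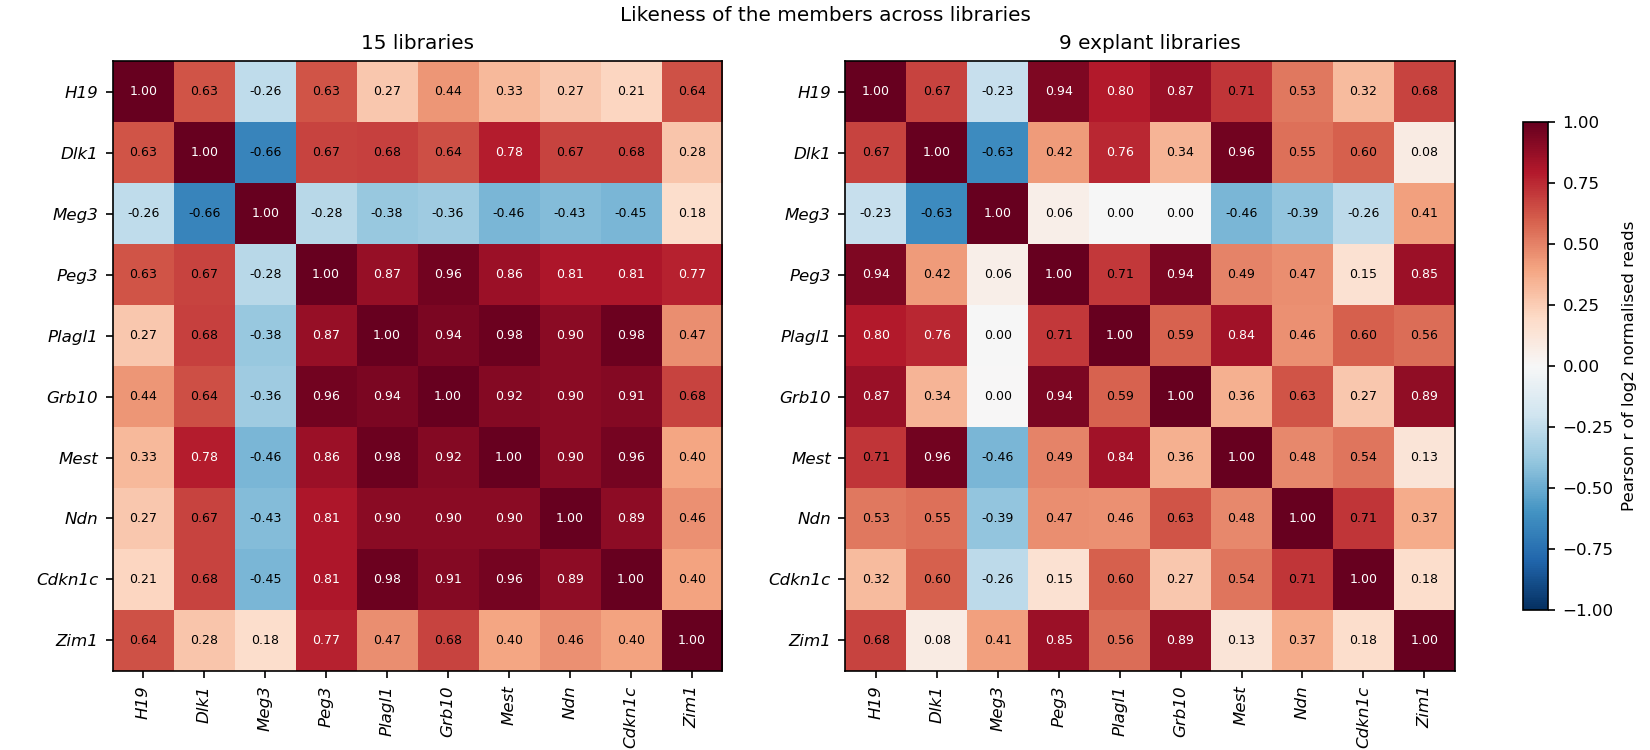
Pearson r between log2 normalised reads of each pair of members, over all 15 libraries on the left and the 9 explant libraries on the right, red for positive and blue for negative values. Meg3 is blue against 8 of 9 members on the left, with -0.66 against Dlk1.

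Of all tested genes outside the 10, the one most like each member over the 15 libraries was Padi4 for H19 (r = 0.98), Serping1 for Dlk1 (0.93), Mbd6 for Meg3 (0.91), N4bp2 for Peg3 (0.99) and Tril for Plagl1 (1.00). For Grb10 it was Dcp2 (1.00), for Mest Smarcd1 (0.99), for Ndn the pseudogene Gm5422 (0.95), for Cdkn1c Carm1 (0.99) and for Zim1 Foxk1 (0.97). Within the 6 fresh libraries Dlk1 and Serping1 had r = -0.43, and the other 9 pairs had 0.84 to 1.00. Within the 9 explant libraries r ran from 0.78 for Ndn with Gm5422 and 0.88 for Plagl1 with Tril to 0.99 for Peg3 with N4bp2. Each partner was picked as the highest r over libraries that include these, so high values within them lend no separate support.

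Of 43 other imprinted genes, all tested, 8 were higher and 9 lower in the libraries labelled S1pr2 null, with a median log2 fold change of -0.06. Kcnq1, a potassium channel of the Cdkn1c cluster, was the lowest of these (log2 fold change -1.29, SE 0.16, adjusted p = 2.42e-05), and Mkrn3 was among the higher (log2 fold change 0.50, SE 0.14, adjusted p = 0.0127). With JTE013 12 were higher and 15 lower than in control, with a median of -0.09. The largest were Nnat, which encodes neuronatin (log2 fold change -1.65, SE 0.07, adjusted p = 1.84e-11), Ddc, an enzyme of amine synthesis (log2 fold change -1.62, SE 0.16, adjusted p = 4.4e-07), and on the other side Usp29, the divergent neighbour of Peg3 (log2 fold change 1.14, SE 0.21, adjusted p = 0.000185). With JTE013 and CTGF 9 were higher and 19 lower than in control, with a median of -0.17, led by Nnat (log2 fold change -1.91, SE 0.07, adjusted p = 5.01e-12) and by Rtl1 of the Dlk1 cluster (log2 fold change -1.90, SE 0.10, adjusted p = 8.72e-11). Phlda2, a growth-restraining neighbour of Cdkn1c, was higher (log2 fold change 0.81, SE 0.23, adjusted p = 0.00637), as was Klf14, a transcription factor gene near Mest (log2 fold change 0.65, SE 0.09, adjusted p = 5.73e-06). Against JTE 7 were higher, among them Phlda2 (log2 fold change 0.62, SE 0.23, adjusted p = 0.0476), and 11 lower, among them Usp29 (log2 fold change -0.99, SE 0.21, adjusted p = 0.00172), with a median of -0.16. In control explants against wt 10 were higher and 16 lower, with a median of -0.10, and the other called values ran from Calcr (log2 fold change -2.06, SE 0.38, adjusted p = 0.000181) to Gatm (log2 fold change 2.22, SE 0.12, adjusted p = 2.39e-10). Slc22a3, also called lower, is given no fold because its control libraries held at most 1 read each, with a mean of 0.689 normalised reads against 13.6 in wt. Some of the folds above rest on few reads. Mean normalised reads were 9.63 in control and 40.5 in wt for Calcr, 29.7 in JTE + CTGF and 17 in control for Phlda2, and 44.5 in JTE and 20 in control for Usp29. In these 5 comparisons 26, 16, 15, 25 and 17 of the 43 were not called, beside 25.8%, 52.2%, 61.1%, 30.4% and 57.8% of all tested genes that were called in either direction. The same shares of all genes stand beside the counts of the 2 lists that follow.

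The IGF pathway list, on which Igf2 and Grb10 act, held 17 genes, all tested. In the libraries labelled S1pr2 null 9 were higher and 2 lower, with Igfbp5, an IGF-binding protein, highest (log2 fold change 0.70, SE 0.11, adjusted p = 0.00022). With JTE013 5 were higher, led by the insulin receptor Insr (log2 fold change 0.80, SE 0.08, adjusted p = 3.02e-07), and 6 lower. With JTE013 and CTGF 5 were higher and 11 lower than in control, and 3 higher and 9 lower than in JTE. The IGF1 receptor Igf1r fell most in the latter (log2 fold change -1.32, SE 0.07, adjusted p = 5.97e-09). In control explants 2 were higher and 10 lower than in wt. The list's medians were 0.17, -0.13, -0.33, -0.24 and -0.27 in these 5 comparisons.

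Of the other 6 Cip/Kip and INK4 inhibitors, the relatives of Cdkn1c, 5 were tested. In the libraries labelled S1pr2 null 4 were lower and none higher, whereas Cdkn1c was higher. Cdkn2b (p15), 1 of the 4, had a mean of 2.77 normalised reads in S1pr2 null and 11.5 in wt, too few for a fold to be given. It rose in control explants against wt (log2 fold change 2.50, SE 0.26, adjusted p = 4.21e-07), where Cdkn1c fell. The size of this rise, to a mean of 65.5 reads, also rests on the low wt mean of 11.5. Cdkn2b was lower with JTE013 (log2 fold change -1.35, SE 0.23, adjusted p = 0.000121), and was higher in JTE + CTGF than in JTE (log2 fold change 0.74, SE 0.25, adjusted p = 0.0313). In that comparison 1 of the 5 was higher and none lower. Of the 5, 2 were higher and none lower in control explants than in wt, and 2 were higher and 2 lower with JTE013 than in control, as with JTE013 and CTGF. Medians of the 5 genes were -0.44 for S1pr2 null, 0.21 for JTE, 0.11 for JTE + CTGF against control, 0.06 against JTE and 0.12 for control explants.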

How the data were processed

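The authors aligned single-end reads of strand-specific poly(A) libraries to mm10 with GSNAP and deposited raw read counts per Ensembl gene from featureCounts 1.4.6, taking uniquely aligned reads only. Whether counting used the strand was not stated, and no samples were pooled after sequencing. Groups and replicate numbers came from the sample titles. Symbols came from GENCODE M21 (24750 of 25292 IDs, 97.9%), and coordinates are the exon spans of the count table. The members and gene lists were chosen with earlier results of these data known.

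Differences in counts were assessed by the quasi-likelihood test of edgeR 4.0.16 in R 4.3.3, with TMM factors, filterByExpr, 1 coefficient per group and all 15 libraries. P-values were adjusted by Benjamini-Hochberg over 16245 genes, and an adjusted p below 0.05 was a call. Depth was 11402804 to 13828737 counted reads per library, and the common biological coefficient of variation was 7.30%. Alternatives were DESeq2 1.42.0, its size factors in edgeR, no filter, only the libraries compared, a replicate block, leaving out each library and the study's criterion of regulation. The test was checked on simulated counts. Correlations used log2 CPM with a prior count of 2. Replicates differed by more than counting noise (chi-square per gene 2.34 to 23.2).

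Named genes were the 10 members, S1pr2, Igf2, for each comparison the 2 genes furthest up and the 2 furthest down among list genes called without overlap of libraries, and for each member the most similar gene. Copg2 was named for its overlap with Mest. Proteins were not used here. Plots were drawn in Python 3.11.15 with matplotlib 3.10.9.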

Additional observations from a re-analysis of the deposited data

Results flagged for a closer look

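For 8 of the 10 members the JTE response and the difference between libraries labelled S1pr2 null and wt were not equal by the test of the difference itself (edgeR, adjusted p below 0.05). The log2 difference was -0.73 ± 0.14 (SE, adjusted p = 0.000524) for Plagl1, -0.52 ± 0.09 (SE, adjusted p = 0.000319) for Mest, -0.52 ± 0.08 (SE, adjusted p = 0.000101) for Peg3 and -0.38 ± 0.07 (SE, adjusted p = 0.000383) for Grb10. It was -0.38 ± 0.10 (SE, adjusted p = 0.0076) for Dlk1, -0.35 ± 0.12 (SE, adjusted p = 0.0235) for Cdkn1c and -0.26 ± 0.08 (SE, adjusted p = 0.013) for H19, whereas Meg3 had 0.61 ± 0.19 (SE, adjusted p = 0.0167). Meg3 was not called without JTE replicate 1 (0.49, adjusted p = 0.0515). Cdkn1c was not called when any of 5 libraries was left out, with values of -0.24 to -0.33. These were wt replicate 3, S1pr2 null replicate 1, control replicate 3 and JTE replicates 1 and 2. Groups of 3 libraries were too small for the test for outlying samples.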

How the results depend on the processing

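Of 1200 values of single members under the alternatives, 1146 kept their side of the threshold, 42 lost a call, 12 gained one and none changed the sign of a called value. The number of members called in either direction changed as follows. With only the libraries compared it was 7 (from 4) for S1pr2 null against wt and 4 (from 7) for JTE against control. Of all genes, 5388 of 15527 (from 4199 of 16245) and 7331 of 15342 (from 8474 of 16245) were called there. With no filter on low counts it was 6 (from 3) for JTE + CTGF against JTE, with 5019 of 25292 genes called (from 4941 of 16245). For the study's criterion the share of all genes was not counted. By the study's criterion of regulation, which asks for a fold change below 0.6 or above 1.6 and leaves out noncoding RNAs, it was 0 for S1pr2 null against wt, 0 for JTE against control, 2 for JTE + CTGF against control, 1 for JTE + CTGF against JTE and 1 for control against wt. Without 1 library it ranged over 2 to 4 for S1pr2 null, 4 to 7 for JTE, 5 to 7 for JTE + CTGF against control, 3 to 6 against JTE, 6 to 7 for control against wt and 6 to 8 for the difference of responses. The 2 arose without wt replicate 3 or S1pr2 null replicate 1, the 4 without JTE replicate 2 and the 6 against JTE without JTE replicate 3. Calls over all genes in these fits were, in that order, 3158 of 16473, 3313 of 16466, 7791 of 16488 and 4848 of 16481. Since the calls over all genes moved as well, the changes in count are not particular to the members. DESeq2 and its size factors left each count within 1.5 times. The r of Plagl1 with Mest was 0.836 within the 9 explant libraries. The cause of these changes was not tested.

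Libraries were not treated as paired by replicate number, since correlations of same-numbered deviations ran from -0.10 to 0.25 and not every pair passed 0.1. For JTE against control they were -0.05, 0.15 and 0.25. With 3 libraries a group, and no differently numbered pairs beside them, these values cannot exclude pairing. With a replicate block 3 members were called for S1pr2 null against wt, where Peg3 was lost (0.17, adjusted p = 0.0534), and 6 for JTE against control, where Grb10 was lost (-0.12, adjusted p = 0.0651). The other counts were 7, 3, 7 and 8 as without the block. With 3 libraries a group and this depth, the SE of the members' log2 fold changes ran from 0.05 to 0.19.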

Other observations

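Ratios of neighbouring members within a library do not depend on how libraries are scaled. The ratio of Dlk1 to Meg3 reads was 1.52 ± 0.12 (SD, n = 3) in wt, 1.84 ± 0.25 in S1pr2 null, 1.66 ± 0.41 in control, 1.00 ± 0.28 in JTE and 1.34 ± 0.18 in JTE + CTGF. All S1pr2 null libraries (lowest 1.65) lay above all wt libraries (highest 1.62), and the JTE libraries (0.773 to 1.31) overlapped control (1.26 to 2.07). The ratio of Peg3 to Zim1 was 12.8 ± 0.39 in wt, 13.4 ± 0.12 in S1pr2 null, 10.6 ± 0.87 in control, 7.86 ± 0.45 in JTE and 11.5 ± 1.91 in JTE + CTGF. All JTE libraries (7.52 to 8.36) lay below all others, of which the lowest was a control library at 9.67. No test was run on these ratios.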
